A study of Mus musculus with 6 samples.

Results

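The genes of intestinal bile acid transport and of its nuclear receptor FXR were examined in alk-SMase KO and WT mice. They are 7 genes chosen by name, Fabp6, Slc10a2, Slc51a, Slc51b, Nr1h4, Fgf15 and Nr0b2, among 22700 gene identifiers in the deposited table. The KO mice (libraries K79S, K82S and K86S) lack an exon of Enpp7, the gene of alkaline sphingomyelinase, after deletion by Cre recombinase, which shifts the reading frame. The WT mice gave the libraries W83S, W89S and W90S. The paper names C57BL/6 mice where it describes the targeted gene. All 6 mice ate the same standard pellets, each gave 1 library of total RNA from the mucosa of the middle small intestine, and the labels give no age. The sources describe no stage, tissue or cell type for the Cre, and they say that the animals formed matched pairs without naming the pairs.

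Bile acids are made in the liver, help to dissolve dietary fat, and are taken back mainly in the distal small intestine. There the transporter ASBT (Slc10a2) carries them into the enterocyte, the binding protein of Fabp6 holds them in the cytosol, and the heteromer of OSTα (Slc51a) and OSTβ (Slc51b) releases them across the basolateral membrane. Bile acids also bind the nuclear receptor FXR (Nr1h4), which pairs with RXR and is known to induce Fabp6, Slc51a, Slc51b, the hormone Fgf15 and the corepressor SHP (Nr0b2).

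In the deposited table the identifiers stood beside the values of other genes, and they were returned to their rows by rank, as described under the processing. Of the 22700 identifiers 12402 had a restored row, and of the 7 genes 4 did, namely Slc51a, Slc51b, Nr1h4 and Nr0b2. Fabp6, Slc10a2 and Fgf15 fell outside the ranges of ranks in which a row could be assigned, and their values were not analysed here. Their identifiers ranked below the last assigned row, which had 0.954 FPKM in W83S, so if the order by rank also held there they lay under that level in W83S. Nothing follows from this for the other 5 libraries. FPKM are read fragments scaled to transcript length and to the mapped reads of the library, so levels may be set side by side between genes. The number of reads behind a value is unknown, and the precision rests on the 3 mice per genotype.

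The summed FPKM of a library ran from 393152 (K79S) to 495362 (W89S). The targeted gene, Enpp7, stood at 605 FPKM in K79S, 129 in K82S and 669.7 in K86S, and at 406 in W83S, 667 in W89S and 495 in W90S. A value summed over all exons cannot show that 1 is missing. The enterocyte markers were present in every library, all 10 of 10 with a restored row, and summed to 13531 to 21779 FPKM. W83S stood apart, since the 7 stomach genes with a restored row (of 10) summed to 41019 FPKM there, 8.48% of that library, against 5.72 FPKM or less elsewhere. K82S stood apart as well: without it 1184 of 12764 rows passed the thresholds between genotypes, against 1 of 13089 rows with all 6 libraries. In bulk tissue, fewer cells of a type and less RNA per cell cannot be told apart.

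The genes of both exporter subunits were abundant in all 6 mice, and K82S held the most of each. Slc51a lies on the minus strand at chr16:32474504-32487879 (mm10, GENCODE M21). Its level was 421 FPKM in K79S, 885 in K82S and 169 in K86S among the KO mice, and 177 in W83S, 449.6 in W89S and 219 in W90S among the WT mice. K82S was the highest library and W89S the next, while the lowest library, K86S, was also a KO library, so the genotypes overlapped. The KO mean was 491 ± 363 FPKM and the WT mean 282 ± 147 FPKM (SD, n = 3). On the log2 scale KO exceeded WT by 0.61, with a standard error of 0.64, a 95% confidence interval of -0.92 to 2.14 and a limma adjusted p of 0.697. By exact permutation (two-sided) p was 0.7, where 3 against 3 mice cannot go below 0.1.

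Slc51b, on the minus strand at chr9:65412714-65422955, ran in parallel at a somewhat lower level. Its level was 216 FPKM in K79S, 715 in K82S and 121 in K86S, and 156 in W83S, 404 in W89S and 190.2 in W90S. The order of the 6 libraries was that of Slc51a, from K82S, W89S, K79S, W90S and W83S down to K86S. The means were 351 ± 319 FPKM (KO) and 249.8 ± 134 FPKM (WT; SD, n = 3), and the log2 difference of 0.21 had a standard error of 0.69 and a 95% confidence interval of -1.43 to 1.85. Its limma adjusted p was 0.912 and its p by exact permutation 0.8.

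The receptor gene Nr1h4, on the minus strand at chr10:89454234-89533585, had the widest range of the 3. It reached 13.5 FPKM in K79S, 61.8 in K82S and 7.44 in K86S, and 9.74 in W83S, 32.4 in W89S and 13.9 in W90S. K82S and W89S were again the highest and K86S the lowest, so each genotype held a library well above its other ones. With means of 27.6 ± 29.8 FPKM (KO) and 18.7 ± 12.1 FPKM (WT; SD, n = 3), the log2 difference was 0.17, its standard error 0.78 and its 95% confidence interval -1.69 to 2.04. The limma adjusted p was 0.938 and the p by exact permutation 0.9.

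Nr0b2, on the plus strand at chr4:133553376-133556536, was the weakest of the 4. It was listed at 0 in K79S and K86S, and had 0.714 FPKM in K82S. Among the WT mice it had 5.85 FPKM in W83S, 0.429 in W89S and 0.796 in W90S. Only W83S exceeded 1 FPKM, so the filter on low values removed the gene and limma did not test it, and by exact permutation p was 0.2. W83S is the library with the stomach RNA, whose part in the level of Nr0b2 was not tested. Outside W83S all values of Nr0b2 were under 1 FPKM, and K82S was the only KO library above 0. Such low values cannot show whether Nr0b2 shared the high values of K82S and W89S that Nr1h4 and the exporter genes had.

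**Figure D1:**
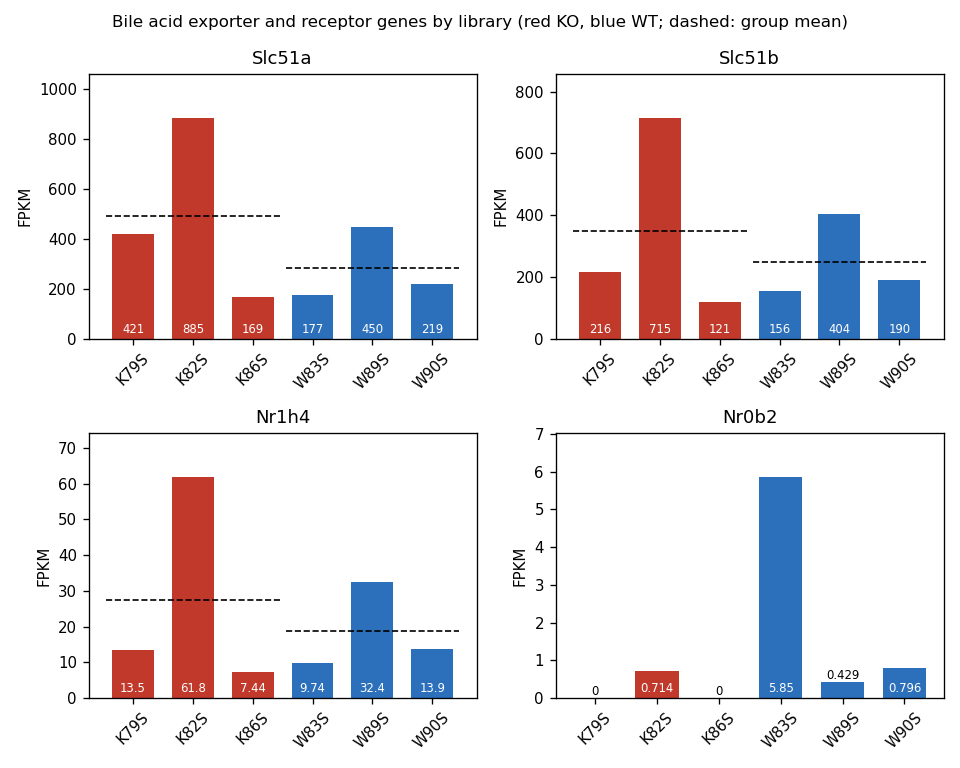
FPKM of Slc51a, Slc51b, Nr1h4 and Nr0b2 (vertical axes, linear from 0) in each of the 3 KO (red) and 3 WT (blue) libraries, with the group mean as a dashed line where no library is listed at 0. K82S and W89S are the highest libraries for Slc51a, Slc51b and Nr1h4, and Nr0b2 is highest in W83S, at 5.85 FPKM.

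Of the 7 genes, 3 thus passed the filter, and 0 of these 3 passed both thresholds of the limma test (adjusted p under 0.05 and a fold change over 1.5), beside 0.00764% of the 13089 rows tested. None of the 3 had an unadjusted p under 0.05 either, beside 12.5% of all rows, and none had separate genotypes, beside 17.2% of all rows. The 3 log2 fold changes had a median of 0.21, and the median over all rows was -0.06. The intervals reach from below -0.9 to above 1.8 on the log2 scale, so a change of more than 1.5-fold in either direction could not be told from none with these mice. The direction for Slc51b and Nr1h4 rested on single libraries: without K82S their log2 fold changes turned to -0.50 and -0.66, and that of Slc51a fell to 0.04 (limma adjusted p of 0.563, 0.477 and 0.975). Without W83S the values of Slc51b, Nr1h4 and Slc51a were -0.06, -0.18 and 0.34.

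The difference between mice was large beside that of other genes. Over the 6 libraries the SD of log2(FPKM + 1) was 0.94 for Slc51a, 0.95 for Slc51b and 1.09 for Nr1h4, where the median over the 13089 rows was 0.27. Only 3.12%, 2.98% and 2.17% of all rows had a larger SD. Among rows whose mean level lay within 0.5 on the log2 scale, 12.5% had a larger SD than Slc51a, 5.13% than Slc51b and 1.42% than Nr1h4. In each of the 6 libraries the levels had the order Slc51a, Slc51b, Nr1h4 and Nr0b2. The libraries of Slc51a (169 to 885 FPKM) and Slc51b (121 to 715 FPKM) overlapped, whereas those of Slc51b and Nr1h4, and of Nr1h4 (7.44 to 61.8 FPKM) and Nr0b2 (0 to 5.85 FPKM), did not.

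Over all 6 libraries, Slc51b and Nr1h4 had the most similar profiles among the 3 genes. Likeness was measured as the root mean square difference between profiles of log2(FPKM + 1), each centred on its mean over the 6 libraries, and 12093 other genes with a restored row were compared. Nr1h4 was the gene nearest to Slc51b and Slc51b the gene nearest to Nr1h4, with a difference of 0.15. Slc51a stood at place 12 for Slc51b, with a difference of 0.28, and at place 15 for Nr1h4, with 0.38. With 1 library left out, Nr1h4 stood at place 1 to 5 for Slc51b (5 without W83S) and Slc51a at place 1 to 88 (88 without K82S). Without K79S the order turned, with Slc51a at place 1 and Nr1h4 at place 2. Without both K82S and W89S Nr1h4 stood at place 18, and Slc51a fell to place 3383.

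The other near genes were of several kinds. For Slc51b they were Fdft1, squalene synthase (difference 0.19), and Hmgcs1, which makes HMG-CoA (0.21). Fdft1 reached 29.7 FPKM in K82S and 23.0 in W89S, and stayed at 5.62 to 11.2 in the remaining 4. For Slc51a they were Slc1a1, a glutamate transporter (0.11), Neu1, a lysosomal sialidase (0.17), and Tm7sf2, a sterol reductase (0.25). For Nr1h4 they were 2610528A11Rik (0.20) and Fdft1 (0.31). None of these passed the thresholds between genotypes (limma adjusted p of 0.652 to 0.978). The exact order of libraries of Slc51a and Slc51b was found in 62 of the 13089 rows (0.474%), and K82S followed by W89S as the highest libraries in 928 rows (7.09%).

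**Figure D2:**
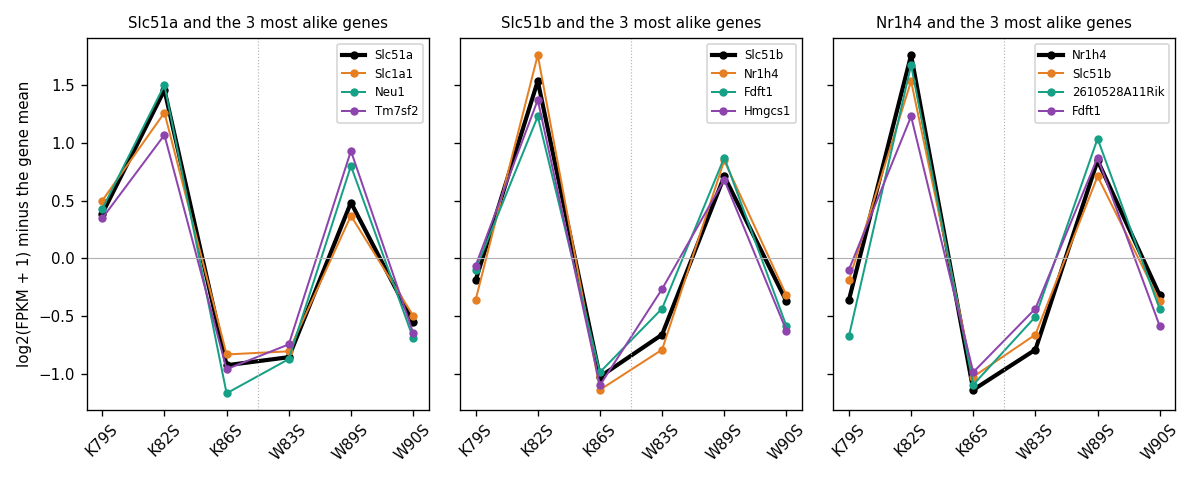
log2(FPKM + 1) minus the mean of the gene (vertical axis) in the 3 KO libraries (left of the dotted line) and the 3 WT libraries, for Slc51a, Slc51b and Nr1h4 (black) and the 3 genes nearest to each (colours). All lines peak in K82S and again in W89S, and the lines of Slc51b and Nr1h4 differ by 0.15 (root mean square).

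The promoters of these 3 genes are shown because their RNA moved together across mice, 300 bases each from RefSeq (GRCm38.p6, 250 before to 50 after the start, written along the gene, which is the minus strand for all 3). They lie at chr16:32487830-32488129, chr9:65422724-65423023 and chr10:89506609-89506908, the last within the GENCODE span of Nr1h4. Capitals mark matches to the motifs that follow.
Slc51a: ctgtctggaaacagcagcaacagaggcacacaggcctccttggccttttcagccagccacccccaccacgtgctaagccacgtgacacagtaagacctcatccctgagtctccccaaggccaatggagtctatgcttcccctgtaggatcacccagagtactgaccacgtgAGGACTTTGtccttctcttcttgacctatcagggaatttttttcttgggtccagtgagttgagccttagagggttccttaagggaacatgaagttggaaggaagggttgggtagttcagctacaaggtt
Slc51b: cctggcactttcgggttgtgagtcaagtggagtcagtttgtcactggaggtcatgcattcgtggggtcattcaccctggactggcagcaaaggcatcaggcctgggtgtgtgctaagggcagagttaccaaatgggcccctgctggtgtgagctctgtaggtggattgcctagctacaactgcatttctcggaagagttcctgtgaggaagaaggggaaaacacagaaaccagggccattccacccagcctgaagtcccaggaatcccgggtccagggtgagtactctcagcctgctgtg
Nr1h4: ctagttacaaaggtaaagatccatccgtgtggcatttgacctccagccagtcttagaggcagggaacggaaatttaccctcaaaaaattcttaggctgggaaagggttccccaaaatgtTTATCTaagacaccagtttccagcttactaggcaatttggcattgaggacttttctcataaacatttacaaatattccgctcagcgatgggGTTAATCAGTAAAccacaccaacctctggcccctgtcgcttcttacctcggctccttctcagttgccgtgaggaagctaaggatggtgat

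The motifs searched on both strands were the FXR inverted repeat (AGGTCA and its reverse complement around 1 free base, up to 2 mismatches), HNF4 CAAAGTCCA (up to 1 mismatch), HNF1 (GTTAAT and its reverse complement around 1 free base, up to 2 mismatches), LRH-1 CAAGGTCA, CDX TTTATGG and the GATA factor motif AGATAA (each without mismatch). The Slc51a window held an HNF4 match on the reverse strand, with its leftmost base 79 bases before the start, and 8.47% of the 32851 promoters held one. The Nr1h4 window held an HNF1 match 40 bases before the start and a reverse GATA match 131 bases before it, where 1.36% and 11.2% of promoters held one. In the Slc51b window these letters were not found. With up to 2 mismatches the FXR repeat was found in none of the 3 windows, and in 1.14% of all promoters. It was found at 2 places in the window of Fabp6, as AGGTGAATGACCA and AGGTGAATAACCT with 2 mismatches each, 222 and 142 bases before the start. The Slc51b window holds gggtcattcaccc, which missed the limit with 3 mismatches. Read on the reverse strand, it differs from the first Fabp6 match only in its first and last base. The absence in Slc51b therefore depends on the limit. How many promoters hold a match with 3 mismatches was not determined. A match of letters is a description and not a bound site.

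OSTα and OSTβ form a heteromer, and their ratio within a library does not depend on a factor common to both. The ratio of Slc51a to Slc51b was 1.95 in K79S, 1.24 in K82S and 1.40 in K86S, and 1.14 in W83S, 1.11 in W89S and 1.15 in W90S. The KO and WT values did not overlap. Among single rows 17.2% had no overlap in either direction, but the share among ratios of genes was not determined. The ratio was 1.53 ± 0.374 in KO and 1.14 ± 0.0199 in WT (SD, n = 3, exact permutation p = 0.1, the smallest possible). This ratio was chosen after the values of both genes had been seen, and the spread in KO came mostly from K79S. The annotated gene of Slc51a overlaps Pcyt1a on the opposite strand by 567 bp, and that of Slc51b overlaps Rasl12 by 2140 bp. As the handling of strand is not stated, reads of the overlaps cannot be told apart. Pcyt1a had 17.5 (W89S) to 39.6 FPKM (K79S), far below Slc51a, and Rasl12 was not analysed here.

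The ratio of Slc51b to Nr1h4, genes already seen to have the nearest profiles, restates that likeness on the scale of FPKM. It ran from 11.6 in K82S to 16.2 in K86S, a 1.40-fold range, beside 5.93-fold for Slc51b and 8.31-fold for Nr1h4. It was 14.6 ± 2.62 in KO and 14.0 ± 1.78 in WT (SD, n = 3, exact permutation p = 0.8). For Rxra, which encodes a partner of FXR, the ratio to Nr1h4 ran from 0.51 in K82S to 4.97 in K86S, while Rxra itself stayed between 25.5 and 37.2 FPKM.

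**Figure D3:**
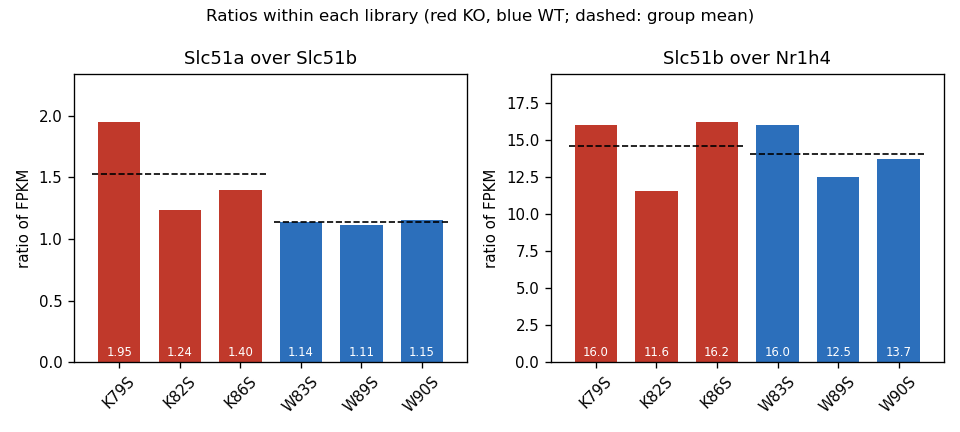
Ratio of FPKM (vertical axes, linear from 0) of Slc51a to Slc51b and of Slc51b to Nr1h4 in each KO (red) and WT (blue) library, with group means as dashed lines. The ratio of the exporter subunits is 1.24 to 1.95 in KO and 1.11 to 1.15 in WT, and that of Slc51b to Nr1h4 overlaps between genotypes.

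Other genes of bile acid handling were drawn from a list of 37, which holds nuclear receptors and other transcription factors, bile acid and sterol transporters, and enzymes that make or modify bile acids. Of these 22 had a restored row and all 22 were tested. None passed the thresholds, 13 had a higher and 9 a lower mean in KO, and the median log2 fold change was 0.04, beside -0.06 over all rows. An unadjusted p under 0.05 in the limma fit was reached by 2 of the 22 (12.5% of all rows), and the same 2 had all KO libraries above all WT libraries (5.90% of all rows). They were Malrd1, which is known to affect Fgf15 production, and Abcb1a, the exporter P-glycoprotein.

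Malrd1 stood at 22.4 FPKM in K79S, 37.7 in K82S and 20.4 in K86S, and at 12.9 in W83S, 20.3 in W89S and 15.3 in W90S. The lowest KO library, K86S, was barely above the highest WT library, W89S. The log2 difference was 0.67 with a standard error of 0.28 (limma adjusted p of 0.393), and 0.40 without K82S. For Abcb1a the KO values were 130.3, 130.0 and 173 FPKM and the WT values 82.8, 106 and 115 FPKM. Their log2 difference was 0.51 with a standard error of 0.21 (limma adjusted p of 0.393).

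The other abundant genes of this list, Cyp3a11 apart, varied less between mice than the exporter genes. The transcription factor Hnf4a had 154 to 235 FPKM in KO and 129 to 215 FPKM in WT. The sterol efflux subunits Abcg5 and Abcg8 had 134 to 175 and 51.1 to 78.1 FPKM in KO, and 132 to 177 and 43.9 to 64.0 FPKM in WT. The sulfotransferase Sult2b1 had 47.7 to 82.3 FPKM in KO and 47.2 to 67.8 FPKM in WT. Cyp3a11, which hydroxylates bile acids, was more variable, with 52.2 to 293 FPKM in KO and 73.8 to 337 FPKM in WT. The ranges of the genotypes overlapped for all 5 genes.

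**Figure D4:**
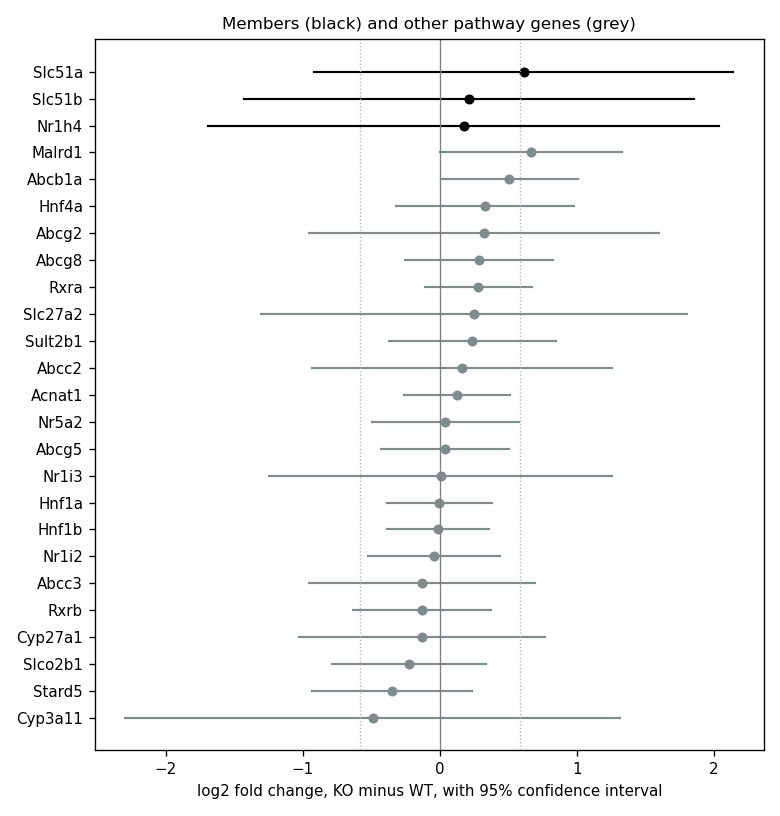
log2 fold change of KO minus WT on the log2(FPKM + 1) scale (horizontal axis) with its 95% confidence interval from limma, for Slc51a, Slc51b and Nr1h4 (black) and the 22 other genes (grey), with dotted lines at a 1.5-fold change. The interval of every gene but Malrd1 and Abcb1a includes 0, and the intervals of the 3 black genes are among the widest.

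Of the 22 genes, 16 had K82S and then W89S neither as the highest nor as the lowest libraries. K82S and then W89S were the highest libraries for Nr5a2, the nuclear receptor LRH-1, and for Abcg2, an efflux pump of the apical membrane, 2 of 22 genes (9.09%), a share close to the 7.09% of all rows. Abcg2 reached 52.3 FPKM in K82S and 24.1 in W89S, beside 12.5 to 17.0 in the remaining 4. K82S and then W89S were the lowest for Nr1i3, Abcc2, Slc27a2 and Cyp3a11, 4 of 22 genes (18.2%) beside 4.78% of all rows. The receptor CAR (Nr1i3) was down at 4.54 FPKM in K82S and 7.31 in W89S, beside 13.1 to 19.9 in the remaining 4. The efflux pump Abcc2 had 29.0 and 33.2 FPKM beside 53.7 to 88.5 FPKM, and Slc27a2, an acyl-CoA synthetase, had 7.78 and 7.83 FPKM beside 20.8 to 37.2 FPKM.

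Some markers of position along the small intestine also had their extremes in K82S and W89S. Of 13 proximal markers all 13 had a restored row and 12 were tested. K82S and then W89S were the lowest for 6 of the 12 (4.78% of all rows), namely Gata4, Lct, Fabp1, Apoa4, Slc2a2 and Gip. The other 6 had other orders. For Cck and Slc46a1 the same libraries were lowest in the reverse order, W89S below K82S, and Adgrg7 was highest in K82S. The sum of the 13 was 4143 FPKM in K82S and 5097 in W89S, beside 8235 to 15225 in the remaining 4, so that it ran from 4143 to 15225 FPKM in KO and from 5097 to 13251 FPKM in WT. Apoa4 and Fabp1 made up most of this sum in every library. Gata4, a transcription factor of the proximal and middle small intestine, stood at 35.6 FPKM in K79S, 11.3 in K82S and 38.3 in K86S, and at 47.2 in W83S, 25.4 in W89S and 34.3 in W90S. None of the proximal markers was at 0 in all libraries, and 0 of 12 passed the thresholds (none with an unadjusted p under 0.05, beside 12.5% of all rows).

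Of 10 distal markers that are not among the 7 genes, 7 had a restored row and were tested. K82S and then W89S were the highest for 2 of the 7, Gcg and Nts (7.09% of all rows), and K82S was the highest, whichever came next, for these and for Pyy and Naaladl1 (4 of 7, beside 22.1% of all rows). Cubn and Amn were highest in K79S and Osr2 in W89S. Naaladl1, a peptidase, reached 1629.7 FPKM in K79S, 1657 in K82S and 586 in K86S, and 387 in W83S, 1179 in W89S and 407 in W90S. The hormone gene Nts reached 89.01 FPKM in K82S and 74.1 in W89S, beside 28.3 to 58.9 in the remaining 4, and Amn, which encodes the partner of the vitamin B12 receptor cubilin, had 188 to 353 FPKM in KO and 150.5 to 287 FPKM in WT. The 7 summed to 909.8 to 2188 FPKM in KO and 614 to 1656 FPKM in WT, with the highest sum in K79S and not in K82S (2083 FPKM), and none was at 0 in all libraries. Naaladl1 was the largest part of this sum in every library, so the sum says little of the weaker markers. Of the 7, 0 passed the thresholds and 1, the cubilin gene Cubn, had an unadjusted p under 0.05 in the limma fit, beside 12.5% of all rows. Its log2 difference was 1.17 with a standard error of 0.36 (limma adjusted p of 0.393). The part of position along the intestine in the levels of Slc51a, Slc51b and Nr1h4 was not tested.

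**Figure D5:**
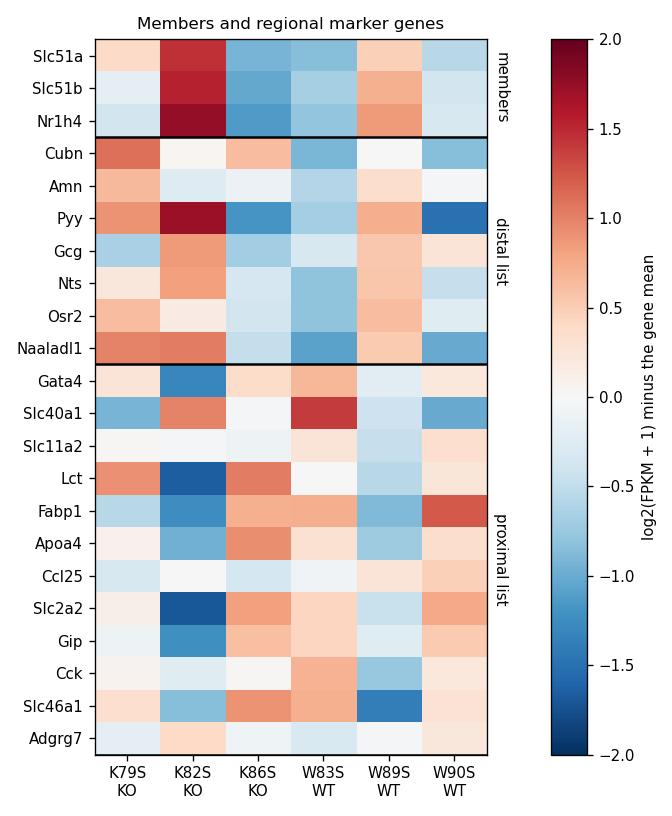
log2(FPKM + 1) minus the mean of the gene (colour, red above and blue below) in the 6 libraries (columns, KO and WT) for Slc51a, Slc51b and Nr1h4, the 7 distal and the 12 proximal markers tested. In K82S, and less so in W89S, the upper 3 genes are red. The 6 proximal markers that are lowest in K82S and then in W89S, Gata4 among them, are blue there.

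Markers of other tissues and cells were read beside these 3 genes, and none of them passed the thresholds. The 3 smooth muscle genes with a restored row (of 6) summed to 13.4 to 29.1 FPKM in KO and 10.6 to 33.6 FPKM in WT, with K82S highest for none. The 3 pancreatic genes with a restored row (of 8) summed to 1.08 to 4.36 FPKM in KO and to 2323 FPKM in W83S, beside at most 5.30 FPKM in the other WT libraries. Nearly all of the sum in W83S was Pla2g1b, at 2309 FPKM, while Cela1 had 12.4 and Ctrb1 2.11 FPKM there. The 4 immune genes with a restored row (of 5) summed to 1638 to 1786 FPKM in KO and 624 to 810 FPKM in WT. Cd74 made up most of this sum, with 1511 to 1667 FPKM in KO and 544 to 734 FPKM in WT. For Ptprc and Jchain the genotypes overlapped. The 3 hepatocyte genes with a restored row (of 4) summed to 4.93 to 9.86 FPKM in KO and 27.4 to 92.0 FPKM in WT. In the limma fit an unadjusted p under 0.05 was reached by 2 of the 4 immune genes (Cd74 and Cd3e, higher in KO) and by all 3 hepatocyte genes (Alb, Apoa2 and Ttr, lower in KO). Over all rows the share was 12.5%. K82S was the highest library for 3 of the 4 immune genes (22.1% of all rows), with 4.01 FPKM of Ptprc, 6.11 FPKM of Cd3e and 162 FPKM of Jchain. The part of these markers in the levels of Slc51a, Slc51b and Nr1h4, whose genotypes overlapped, was not tested.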

How the data were processed

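RNA of the middle small intestinal mucosa of 3 KO and 3 WT mice was analysed, 1 library per mouse, grouped by the genotype label. Single-end reads were trimmed (trim-galore), aligned to mm10 (HISAT2) and quantified (StringTie) by the authors, who deposited FPKM values, 1 per gene and library. Tool versions, the gene annotation and whether strand was used are not given in the sources used here, nor is whether an edgeR normalization that the paper names was applied. There were 0 unmapped columns. Read counts were not used here, and p-values measure the spread between mice.

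The identifiers were ranked by the K79S value beside them and the rows by W83S, both from the highest down, and each identifier was moved to the row at its own rank plus an offset fixed for each of 12 ranges of ranks, down to identifier rank 12482. Identifiers between or below these ranges were dropped. The offsets came from earlier work on these data, which used the number of printed decimals. After the move, 99.7% of 3649 genes with a single transcript in GENCODE M21 had at most 6 decimals and 5.80% of 8748 genes with several, against 33.9% and 34.3% as deposited. Within 50 ranks of each of Slc51a, Slc51b, Nr1h4 and Nr0b2 it was 100% of single-transcript genes, and at most 50% with the offset moved by 1. The offsets were made with the same property, so this is no independent check. Symbols were found for 22680 identifiers.

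A row was kept if at least 2 libraries had 1 FPKM or more, which 13089 rows met. The test was limma 3.58.1 (R 4.3.3) on log2(FPKM + 1), with genotype as the only term and eBayes with trend over all 6 libraries, with Benjamini-Hochberg adjustment over all rows. Fold changes are on this scale, which understates the change of weak genes. In simulated data of 13089 rows, of which 200 differed by 2 (log2), the fit called 163 of them and 9 others when each row kept its own SD. The simulated levels were set above the measured ones, and the noise was independent between rows. The simulation therefore checks that the fit runs, and does not give its sensitivity for smaller changes or for shifts shared by many rows of 1 library. Alternatives covered pseudocounts, filters, scaling, array weights and each library left out. Figures and sequence searches used Python 3.11.15 with numpy 2.4.6, pandas 2.3.3 and matplotlib 3.10.9.

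The genes, lists and tests were chosen with earlier results of these data known. The genes to be named were the 7 genes, the 3 most abundant of each marker list (6 of the bile acid list), listed genes past the thresholds, of which there were 0, and the 3 genes with the profile nearest to each tested gene. Lists of tissues and cells outside the epithelium are given mostly as sums. Rxra, Malrd1, Gata4, Slc2a2, Gip, Cck, Slc46a1, Cubn, Pyy, Gcg, Nr5a2, Abcg2, Nr1i3, Abcc2, Slc27a2, Adgrg7, Osr2 and Ptprc were added after their values were seen.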

Additional observations from a re-analysis of the deposited data

How the results depend on the processing

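The log2 fold change of Slc51a stayed above 0 under all 14 alternatives, between 0.04 and 1.23. In some of them it exceeded the threshold for fold change, as with 1.23 without K86S. The threshold for adjusted p was met in none (limma adjusted p from 0.547 upward). The log2 fold changes of Slc51b and Nr1h4 turned to -0.088 and -0.21 with array weights, where K82S had a weight of 0.302. With 1 library left out they ran from -0.50 to 0.78 and from -0.66 to 0.79, below 0 without K82S and without W83S (-0.063 and -0.18), and Slc51a ran from 0.04 to 1.23. None of the 3 genes and none of the 22 other bile acid genes passed under any alternative. Over all rows, 0 passed with a pseudocount of 0.1, 0 with 0.01, 2 with array weights and 0 to 1184 with 1 library left out, the last without K82S. The median log2 fold change of all rows was -0.06, and it was 0.08 with libraries rescaled to equal sums, where 15552 rows passed the filter in place of 13089, and -0.22 with centring on epithelial genes, and Slc51a, Slc51b and Nr1h4 then stood at 0.80, 0.40 and 0.35, and at 0.46, 0.06 and 0.02. Nr0b2 passed a filter only with no filter, with a mean of at least 1 FPKM or after rescaling, with log2 fold changes of -1.12 to -1.56 (adjusted p = 0.431 to 0.572 from limma), a value that rests on W83S. The places in the likeness of profiles under other settings were chosen after seeing the data. The cause of these moves was not tested. No paired analysis was possible because the labels name no pairs and share no replicate number. FPKM gives no depth per gene, so the 3 mice per genotype set the limit.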
